A study of Sus scrofa with 48 samples.

Results

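High RFI and low RFI pigs fed the LF diet were compared for gene expression in the longissimus muscle, the long muscle of the back. Residual feed intake (RFI) is the difference between the feed a pig eats and the feed predicted from its growth and maintenance, so that low RFI pigs are the more efficient. The comparison used 24 of the 48 samples of the series, chosen by their labels as feed condition LF: 12 pigs labelled RFIpl (high RFI line) and 12 labelled RFIneg (low RFI line), each on its own one-colour 60 K array. All were barrows, that is, castrated males, of purebred Large White lines selected in opposite directions for RFI, and all received ad libitum a diet low in fat and in fiber. The other 24 pigs, 12 of each line, ate the HF diet, high in fat and in fiber. They entered the shared estimate of the spread and the test of whether the line difference was another on that diet. The age of the pigs is not stated in the labels. Each line is 1 selected population, so that selection and the chance history of the line cannot be told apart here.

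The longissimus of the pig is built mainly of fast-twitch fibres that contract on energy from glycolysis. It also holds blood vessels, connective tissue, resident macrophages and a variable number of fat cells, and RNA from all of these is in each sample. Protein synthesis by ribosomes and the renewal of contractile proteins are among the main energy costs of muscle, which is why translation, proteolysis and energy metabolism are commonly examined in relation to feed efficiency.

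Levels are given as log2 of the processed probe signal relative to the mean of the tested probes of the array, and differences as high RFI minus low RFI, with their standard error and the p-value of limma after Benjamini-Hochberg adjustment over all tested probes. A level can be compared between pigs for 1 probe, but not between probes. A difference was called at an adjusted p under 0.05. The median signal per array lay between 56.8 and 81.7 for high RFI pigs and between 55.2 and 74.8 for low RFI pigs. At least 59.2% of the probes of an array passed the scanner's test against background, and saturated spots were absent. Each of the 6 slides carried 2 arrays of each line on the LF diet. The 9 muscle fibre markers were all measured, with a mean level from 8.66 to 9.01 over the 24 pigs. The samples are labelled skeletal muscle, and no other tissue was compared.

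Of the 42125 probes tested, 1040 (2.47%) differed between the lines on the LF diet. Higher levels in the high RFI pigs were called for 477 probes (1.13%), and lower levels for 563 (1.34%). The balance of the directions depended on the scaling, since 54.3% of the calls were higher with arrays centred on their 75th percentile, 53.7% with quantile normalization and 55.9% with normexp background correction, against 45.9% here. Most differences were small. The median absolute difference was 0.10 over all probes and 0.47 over those called, and 152 called probes differed by 1 or more, of which 111 were higher. The 12 values of one line did not overlap the 12 of the other in 22 probes (0.0522%), 3 higher and 19 lower. Of the lower probes, 9 lie along 1 stretch of RPL6, a ribosomal protein gene, and the higher ones include both probes of PRDX1. A gene symbol was known for 601 of the called probes, which named 400 genes. When each gene was read at its brightest probe, 280 of 10768 genes (2.6%) were called, 110 higher (1.02%) and 170 lower (1.58%), and 40% of all genes had a difference above 0. These shares are the background for the groups of genes described here, whose median difference is to be read beside the median of -0.03 over all genes.

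The largest differences were losses of signal in the high RFI pigs at the paraoxonase genes, which encode lactone-hydrolysing enzymes carried on high-density lipoproteins. The probes with the largest differences of PON1, PON3, PDGFRB and OAZ3 are shown 5′ to 3′ in lower case because the values refer to these stretches alone, and the other PDGFRB probe and 1 of the other OAZ3 probes were not called.
PON1: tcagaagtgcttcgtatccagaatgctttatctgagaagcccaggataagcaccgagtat
PON3: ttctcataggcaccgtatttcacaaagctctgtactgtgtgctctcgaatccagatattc
PDGFRB: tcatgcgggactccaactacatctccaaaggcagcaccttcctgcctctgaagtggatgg
OAZ3: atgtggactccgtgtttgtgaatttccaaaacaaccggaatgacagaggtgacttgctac

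The level of PON1 ranged from 1.16 to 2.82 over the 12 low RFI pigs, with a median of 2.32, and from -3.36 to 1.69 over the 12 high RFI pigs, with a median of -1.96. In 9 of the 12 high RFI pigs it lay at -1.51 or below, while the remaining 3 lay between 0.99 and 1.69, near or among the lowest of the low RFI pigs. The difference was -3.58 ± 0.65 (adjusted p = 0.00084). PON3 ranged from 2.21 to 3.76 over the 12 low RFI pigs, with a median of 3.35, and from -2.11 to 2.58 over the 12 high RFI pigs, with a median of -0.91. Here too 9 high RFI pigs lay at -0.36 or below and 3 at 2.04 or above, so that 10 high RFI pigs were under all low RFI pigs. The difference was -3.48 ± 0.61 (adjusted p = 0.000613), and all 4 probes named PON3 were called, from -3.48 to -1.74. The array names the brightest of them PON1, and the pair are neighbouring paralogs of similar sequence, so that their signals cannot be told apart at this probe. The dimmest called PON3 probe was not well above background on any high RFI array, so that its difference has only a bound. Of the 14 apolipoprotein and paraoxonase genes tested, 3 fell and none rose, with a median of -0.09, where PON3 is counted at the probe that the array names PON1. The last of these was APOA4, a lipoprotein component made mainly by the intestine, at -2.01 (adjusted p = 0.000227) in 1 of its 3 probes. This probe was well above background on 1 of 12 high RFI arrays and 10 of 12 low RFI arrays, so that the size of its difference is uncertain.

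Several of the other large differences stood at 1 probe of a gene. PDGFRB encodes the platelet-derived growth factor receptor of pericytes and fibroblasts. Its level ranged from -0.28 to 1.24 over the 12 low RFI pigs, with a median of 0.38, and from -2.72 to 0.18 over the 12 high RFI pigs, with a median of -2.10, with 10 high RFI pigs at -1.91 or below, all under the lowest low RFI pig, and the difference was -2.27 ± 0.35 (adjusted p = 6.15e-05). The second PDGFRB probe differed by -0.05 (adjusted p = 0.837). KCNE1, a potassium channel subunit, differed by -2.09 ± 0.38 (adjusted p = 0.00084) at one probe and by 0.51 (adjusted p = 0.125) at the other. The called probe was well above background on 5 of 12 high RFI arrays and on all low RFI arrays.

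In the other direction, COL7A1, the anchoring fibril collagen, ranged from 2.75 to 6.89 over the 12 low RFI pigs, with a median of 4.71, and from 6.66 to 7.63 over the 12 high RFI pigs, with a median of 7.38. The low RFI pigs fell into 6 between 2.75 and 3.07 and 6 between 6.35 and 6.89, whereas no high RFI pig lay under 6.66. The difference was 2.59 ± 0.59 (adjusted p = 0.00942), while the other 3 COL7A1 probes lay between -0.33 and -0.08 and were not called. OAZ3, an antizyme that restrains polyamine synthesis and is known from the testis, ranged from -6.30 to -1.69 over the 12 low RFI pigs, with a median of -5.79, and from -5.64 to -0.96 over the 12 high RFI pigs, with a median of -1.37. Of the low RFI pigs, 8 lay at -5.38 or below and 4 at -2.17 or above, while 11 high RFI pigs lay at -2.40 or above and 1 at -5.64. The difference was 2.77 ± 0.70 (adjusted p = 0.0204). This probe was well above background on 11 of 12 high RFI and 4 of 12 low RFI arrays, so that the size of its difference is uncertain. The second called OAZ3 probe has the identical sequence, and the remaining one differed by 0.51 (adjusted p = 0.0626). NEFH, a neurofilament of motor axons, differed by 2.72 ± 0.68 (adjusted p = 0.0188) at one probe and by 0.04 (adjusted p = 0.822) at the other. The former was well above background on 9 of 12 high RFI and 3 of 12 low RFI arrays.

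**Figure D1:**
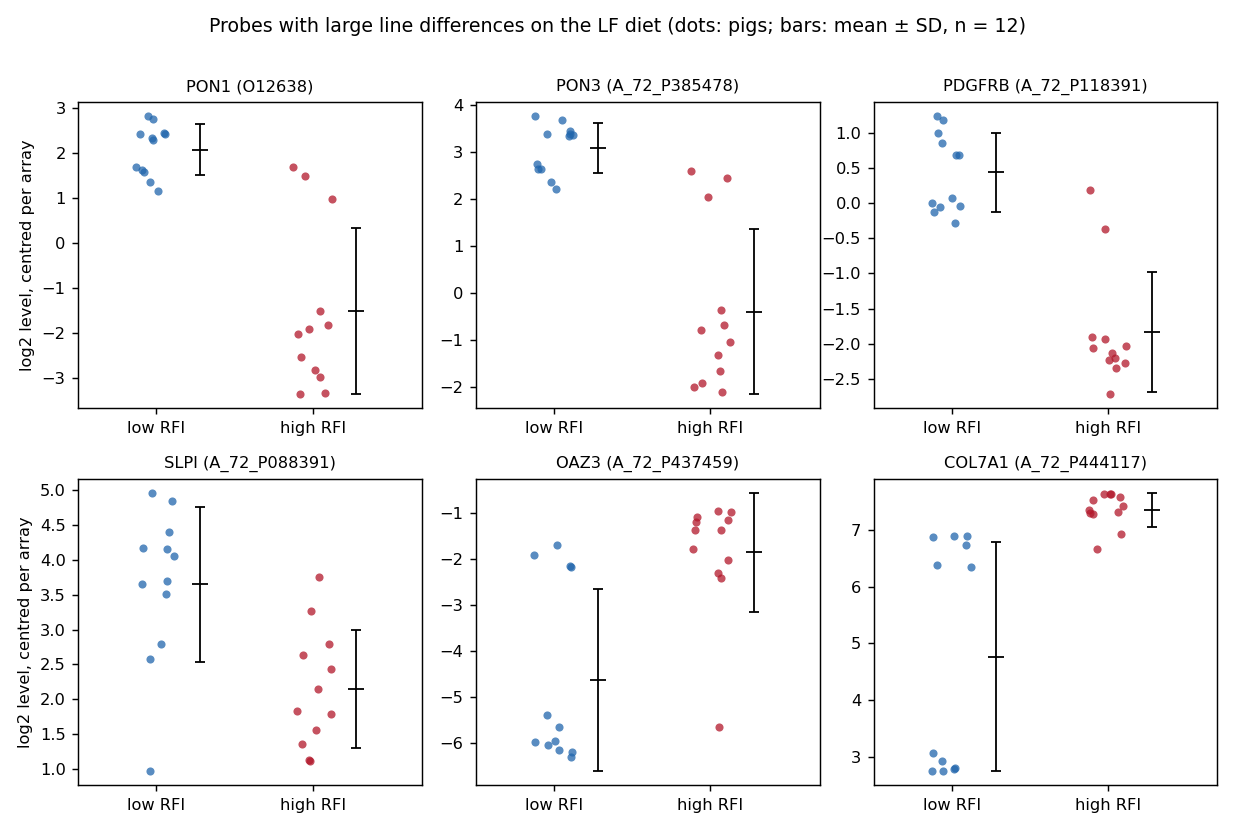
Log2 level relative to the array mean (vertical axis) of 6 probes with large differences in each of the 12 low RFI and 12 high RFI pigs on the LF diet, 1 point per pig with the group mean and SD. PON1 and PON3 show 9 high RFI pigs far below the others and 3 near or among the low RFI pigs, OAZ3 and COL7A1 show low RFI pigs in separate clusters, and SLPI shows overlapping groups. The OAZ3 probe was well above background on 4 of 12 low RFI arrays.

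Other genes were called at several probes. SLPI, an inhibitor of leukocyte elastase secreted at mucosal surfaces, was lower at all 7 of its probes (-1.50 to -0.99), which differ in sequence. At its brightest probe the level ranged from 0.97 to 4.96 over the 12 low RFI pigs, with a median of 3.88, and from 1.11 to 3.76 over the 12 high RFI pigs, with a median of 1.99. The groups overlapped over most of their range, 6 low RFI pigs lying above all high RFI pigs, and the difference was -1.50 ± 0.33 (adjusted p = 0.00608). SPOCK3, a matrix proteoglycan, was lower at both probes, with a difference of -1.80 ± 0.40 (adjusted p = 0.0068) at the brighter, which was well above background on 7 of 12 high RFI arrays, and so was CHADL, a regulator of collagen fibril assembly, with a difference of -0.81 ± 0.20 (adjusted p = 0.0161). PIGL, an enzyme of the membrane anchor of surface proteins, differed by -0.67 ± 0.15 (adjusted p = 0.00942). DHRS1, a short-chain dehydrogenase, was lower at its 3 probes (-0.60 to -0.56, smallest adjusted p = 0.00267), and C4H8orf37 at 2 of 3 probes (-0.67 and -0.66, smallest adjusted p = 0.00809).

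Among the genes with 2 or more called probes, those highest in high RFI pigs were of unlike kinds. UROC1, the urocanase of histidine breakdown, was higher by 1.98 ± 0.56 (adjusted p = 0.0418) at its brightest probe, with 2 of 4 probes called, a call that was lost without any 1 of 12 pigs. UCHL1, a deubiquitinating enzyme abundant in neurons, ranged from 1.99 to 3.27 over the 12 low RFI pigs, with a median of 2.62, and from 2.74 to 4.51 over the 12 high RFI pigs, with a median of 3.81. All but 3 of the high RFI pigs lay above every low RFI pig, and the difference was 1.14 ± 0.23 (adjusted p = 0.00282), with 1.21 (adjusted p = 0.00117) at the second probe. BCO2, which cleaves carotenoids, was higher by 1.75 ± 0.48 (adjusted p = 0.035) at the brighter of its probes, which was well above background on 4 of 12 low RFI arrays and lost its call without any 1 of 8 pigs. AMBN, an enamel matrix protein, was higher by 1.10 ± 0.28 (adjusted p = 0.0191) at the brighter probe.

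Of the 275 called genes with 2 or more distinct probe sequences, 51 were called at all of them and 176 at only 1. For 146 of these 176 the median of the other sequences had the same sign, and for 78 it reached at least 50% of the size. Genes with 3 or more sequences, all called, were few. Lower in high RFI pigs were PON3, SLPI, DHRS1, CAPN2, PGRMC2 and NAXE. Higher were IL18, LGALS3, LGALS8, CD40, CTSH, CASQ2, PHYH, TACC1, GNG10, ZNF217, TCHP and CIT.

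Genes of the translation machinery were lower in the high RFI pigs wherever they were called. Of the 77 cytosolic ribosomal protein genes tested, 9 fell at the brightest probe and none rose, and 73 of the 77 had a difference below 0, with a median of -0.13 and a range from -0.54 to 0.15. The median was -0.05 with quantile normalization, under which 1 of the 77 was called, lower. Lists of energy metabolism leaned the same way, as with 32 of 34 genes of respiratory complex I below 0. Counted by probe, 40 of the 311 probes of cytosolic ribosomal protein genes were called, all lower. Read at the brightest probe, the largest fall was that of RPL14, a protein of the large subunit, whose level ranged from 7.64 to 8.01 over the 12 low RFI pigs, with a median of 7.86, and from 7.11 to 7.77 over the 12 high RFI pigs, with a median of 7.32. All but 1 of the high RFI pigs lay below every low RFI pig. The difference was -0.54 ± 0.08 (adjusted p = 3.85e-05), and 6 of its 7 probes were called, from -0.62 to -0.48. Among the others, RPL18, RPL30, RPL34, RPS3, RPS16, RPS23 and RPS25 differed by -0.27 to -0.20, with adjusted p from 0.0227 to 0.0479. Of these, RPL30 and RPS3 stayed called without any 1 pig. Larger falls were called at dimmer probes of genes whose brightest probe was not called. RPL38 differed by -1.70 (adjusted p = 0.000627) at one probe and by -0.04 at the brighter one. RPL35 differed by -0.83 at both of 2 probes of identical sequence (smallest adjusted p = 0.0196) and by -0.16 at the brightest.

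RPL6, another protein of the large subunit, was lower at 12 of its 15 probes, but by amounts that differed between the probes. Of the 15, 11 lie along a stretch of 170 bases. The following 3 probes of this chain show its order 5′ to 3′, and capitals mark the bases that a probe shares with the end of the one before it.
RPL6 first: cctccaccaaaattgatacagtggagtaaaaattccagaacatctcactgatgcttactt
RPL6 second: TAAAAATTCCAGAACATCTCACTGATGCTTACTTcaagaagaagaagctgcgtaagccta
RPL6 next: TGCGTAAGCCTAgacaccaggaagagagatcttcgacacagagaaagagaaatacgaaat

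The level at the first of these ranged from 5.09 to 5.61 over the 12 low RFI pigs, with a median of 5.29, and from 4.10 to 4.99 over the 12 high RFI pigs, with a median of 4.69, and every high RFI pig lay below every low RFI pig. The difference was -0.72 ± 0.09 (adjusted p = 7.52e-06). At the last of them it ranged from 7.49 to 7.94 over the 12 low RFI pigs, with a median of 7.64, and from 6.73 to 7.45 over the 12 high RFI pigs, with a median of 7.03, again without overlap, with a difference of -0.59 ± 0.08 (adjusted p = 2.21e-05). The 9 probes that cover the first 133 bases of the stretch all had groups without overlap, at -0.76 to -0.51. The last probes of the stretch differed by -0.30 and -0.21. The 4 probes elsewhere in the gene lay between -0.23 and -0.13, and 1 of them was called. The 11 probes of the stretch lie on much of the same target, so that they are not 11 separate measurements. Each of the last probes of the stretch shares a run of bases with the one before it. The overlap is not exact over its whole length, since their sequences differ slightly. Whether position or sequence accounts for the smaller differences there was not tested. Ribosomal protein genes have many near-identical copies in mammalian genomes, and whether these probes separate them was not tested.

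**Figure D2:**
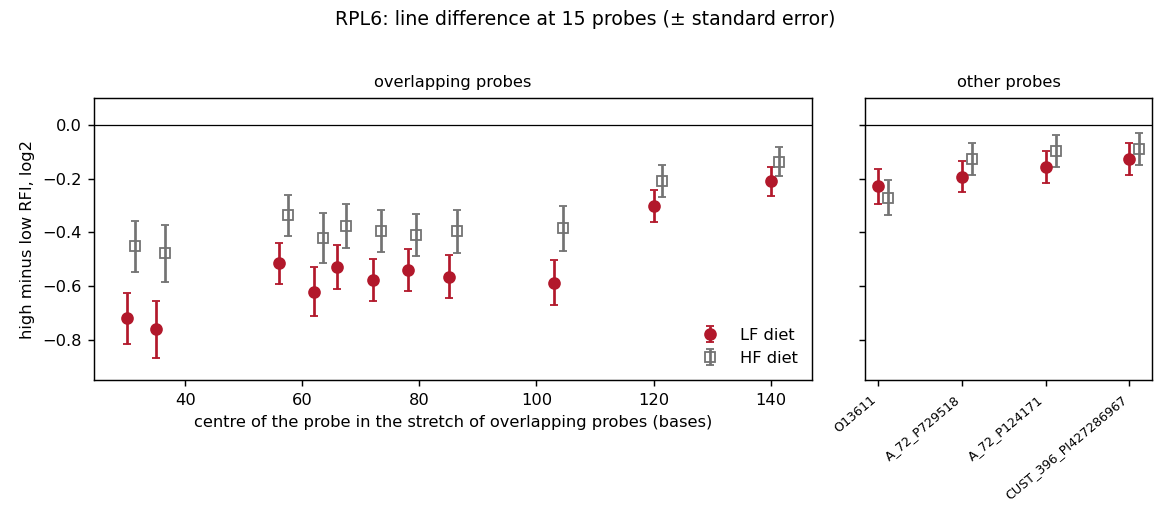
Difference in log2 level, high minus low RFI, with its standard error (vertical axis) for the 15 RPL6 probes on the LF and HF diets, the 11 probes of the stretch by the position of their centre along it in bases (horizontal axis) and the other 4 apart. On both diets the first 9 probes of the stretch differ more than the others, from -0.76 to -0.51 on the LF diet.

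Translation factors followed the same direction, with 6 of 58 genes lower and none higher and a median of -0.09. They were EEF1D (-0.34, adjusted p = 0.00251), EEF1G (-0.22, adjusted p = 0.0347) and EEF1B2 (-0.19, adjusted p = 0.0469), subunits of the elongation factor that recharges EEF1A, the initiation factor subunits EIF3K (-0.28, adjusted p = 0.0149) and EIF3F (-0.26, adjusted p = 0.037), and EIF1B (-0.26, adjusted p = 0.0401), of which 6 of 8 probes were called. Under quantile normalization 1 of the 58 was called, lower. Of the 63 mitochondrial ribosomal protein genes, 5 fell and none rose, with a median of -0.06, which is near that of all genes. At the brightest probe MRPL9 fell most, by 0.40 (adjusted p = 0.00247), with its second probe at -0.46. MRPL33 differed by -0.74 (adjusted p = 0.0229) at its dimmer probe and by 0.14 at the brighter. The others were MRPS16, MRPL21, MRPL15 and MRPL52, at -0.29 to -0.21. The proteasome, which degrades ubiquitinated proteins, had none of 45 subunit genes called at the brightest probe, and the chaperones 1 of 68.

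Some genes known from immune cells or lysosomes, among them LGALS3, IL18, CD40, CFI and CTSH, were called higher in the high RFI pigs, while SLPI, SUSD4 and CCL25 were lower and few members of the immune gene lists were called. Several of these genes are expressed by macrophages among other cells, and in bulk muscle more cells of a type and more RNA per cell cannot be told apart. LGALS3 encodes galectin-3, a sugar-binding protein abundant in macrophages. Its level ranged from 0.33 to 1.73 over the 12 low RFI pigs, with a median of 0.94, and from 0.65 to 3.55 over the 12 high RFI pigs, with a median of 2.36. Of the high RFI pigs, 7 lay above every low RFI pig. The difference was 1.17 ± 0.30 (adjusted p = 0.0205), and all 8 of its probes were called, from 1.15 to 1.20.

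IL18 is a cytokine that induces interferon-gamma and is stored as an inactive precursor. Overlapping probes read it alike, and they are shown 5′ to 3′ because 42 shared bases, in capitals, carry most of both.
IL18 first: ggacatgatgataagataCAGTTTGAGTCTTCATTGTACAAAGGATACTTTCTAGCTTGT
IL18 second: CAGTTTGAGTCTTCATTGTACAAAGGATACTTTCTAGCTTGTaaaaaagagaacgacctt

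At the first of them the level ranged from -1.57 to 1.05 over the 12 low RFI pigs, with a median of -0.26, and from -0.57 to 2.63 over the 12 high RFI pigs, with a median of 1.37. The values overlapped, with 7 high RFI pigs above all low RFI pigs, and the difference was 1.41 ± 0.34 (adjusted p = 0.0157). At the second the difference was 1.49 ± 0.35 (adjusted p = 0.0118), and all 4 IL18 probes were called, 2 of them with identical sequence. CD40, the costimulatory receptor of antigen-presenting cells, ranged from 0.47 to 2.42 over the 12 low RFI pigs, with a median of 1.37, and from 1.87 to 2.72 over the 12 high RFI pigs, with a median of 2.32. All 12 high RFI pigs lay above 9 of the 12 low RFI pigs. The difference was 0.92 ± 0.18 (adjusted p = 0.00181), and all 5 probes were called, from 0.92 to 1.01. CX3CR1, the fractalkine receptor of monocytes and macrophages, differed by 1.25 ± 0.33 (adjusted p = 0.0266) and CXCL16, a chemokine and scavenger receptor, by 0.89 ± 0.25 (adjusted p = 0.0412) with 3 of 4 probes called. The call of CX3CR1 was lost without any 1 of 3 pigs and that of CXCL16 without any 1 of 13. Of the 87 cytokine and receptor genes tested, 3 rose at the brightest probe (CD40, IL18 and CX3CR1) and 1 fell, with a median of 0.03. The one that fell was CCL25, a chemokine of thymus and small intestine, which ranged from 1.78 to 2.43 over the 12 low RFI pigs, with a median of 2.03, and from 1.14 to 1.96 over the 12 high RFI pigs, with a median of 1.41. All but 1 high RFI pig lay under the lowest low RFI pig, and the difference was -0.54 ± 0.10 (adjusted p = 0.00084).

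CFI encodes complement factor I, the protease that inactivates C3b and C4b. It ranged from -2.46 to -1.28 over the 12 low RFI pigs, with a median of -1.91, and from -1.41 to 0.10 over the 12 high RFI pigs, with a median of -0.64. Of the high RFI pigs, 11 lay above every low RFI pig. The difference was 1.17 ± 0.23 (adjusted p = 0.00252), with the same size at its second probe, and CFI was the only called gene of 24 complement genes, whose median was 0.27. VSIG4, a complement receptor of tissue macrophages, was called at 4 of 7 probes. At the brightest of those called it ranged from -1.01 to 0.63 over the 12 low RFI pigs, with a median of 0.02, and from -0.49 to 1.89 over the 12 high RFI pigs, with a median of 1.03, with 8 high RFI pigs above all low RFI pigs, and the difference was 0.96 ± 0.27 (adjusted p = 0.0434), a call lost without any 1 of 14 pigs. FCGR1A, a receptor for immunoglobulin G on monocytes, differed by 1.69 ± 0.39 (adjusted p = 0.0112) at one probe and by 0.32 (adjusted p = 0.675) at the other. LY96, the partner of TLR4 in endotoxin sensing, was called at 2 of 4 probes, each by 0.70.

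**Figure D3:**
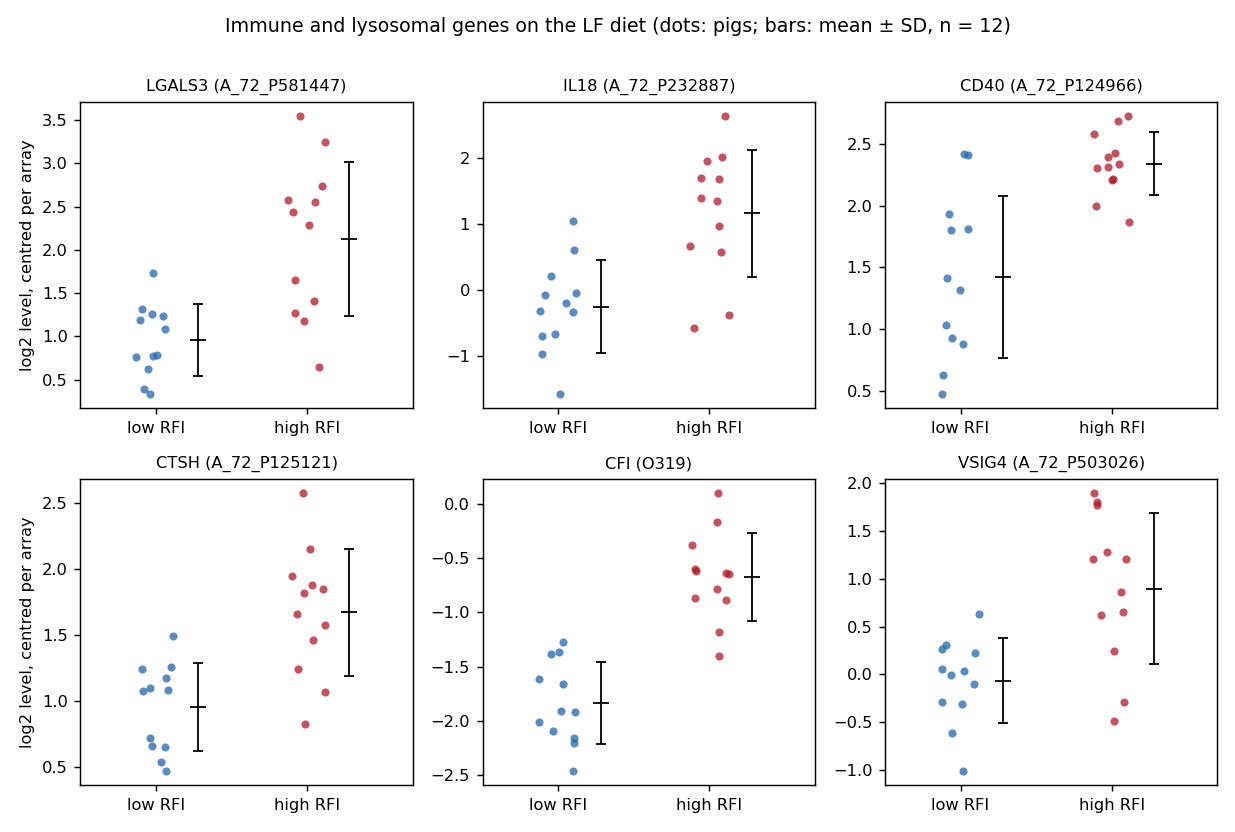
Log2 level relative to the array mean (vertical axis) of LGALS3, IL18, CD40, CTSH, CFI and VSIG4 in each of the 12 low RFI and 12 high RFI pigs on the LF diet, 1 point per pig with the group mean and SD. The high RFI group is higher in each panel and wider than the low RFI group for LGALS3, where 7 pigs lie above all low RFI pigs.

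Of 20 calpain, calpastatin and cathepsin genes, 2 rose, both cathepsins, and 1 fell, CAPN2. CTSH, a cathepsin with aminopeptidase activity, ranged from 0.47 to 1.50 over the 12 low RFI pigs, with a median of 1.08, and from 0.83 to 2.58 over the 12 high RFI pigs, with a median of 1.74. It was above every low RFI pig in 8 high RFI pigs. The difference was 0.72 ± 0.16 (adjusted p = 0.00902), with all 4 probes called, from 0.71 to 0.72. CTSC, which activates the serine proteases of leukocytes, differed by 0.75 ± 0.17 (adjusted p = 0.00988), with both probes called. LIPA, the acid lipase of lysosomes, was called at 2 of 4 probes, by 0.66 and 0.69.

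Of the 11 macrophage markers tested 1 was called at the brightest probe, LGALS3, which is described among the genes here. All 11 had differences above 0, with a median of 0.54 over genes, and 9 of their 42 probes were called, 8 of LGALS3 and 1 of GPNMB. The mean level of the 11 markers had a median of -0.81 in low RFI pigs, between -1.40 and -0.29, and of -0.08 in high RFI pigs, between -1.16 and 0.79, so that the groups overlapped. Among the defining markers CD14 differed by 0.37, SPI1 by 0.40, AIF1 by 0.48, CD163 by 0.25 and MRC1 by 0.18, none of them called (smallest adjusted p = 0.0819). LYZ differed by 1.65 (adjusted p = 0.12), and CSF1R and CD68 were dim on some of the LF arrays. The part of macrophage number in the immune and lysosomal differences was not tested. Of the T and B cell markers 0 of 12 were called, with a median of -0.14. Of 33 antigen presentation genes none was called at the brightest probe (median 0.11), although 1 of 2 probes of SLA-2 and 1 of 8 of SLA-3, class I antigens of the pig, were higher. Fibroblast markers had a median of 0.15 and endothelial markers one of 0.05, with none of 8 and none of 7 called.

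The same pigs recurred at some of these genes and not at others. The 7 high RFI pigs that lay above every low RFI pig were numbers 2, 3, 6, 7, 10, 11 and 12 of their group at every LGALS3 probe, the numbers being only names. The same 7 stood above all low RFI pigs at 2 of the 3 probes of CASQ2, a gene of muscle fibres. They were also the set at some, but not all, probes of CXCL16, CTSH, LIPA, VSIG4 and AMBN. Pig 8 joined these 7 at other probes of LIPA and VSIG4 and at the called probe of GPNMB. For IL18 the set was 1, 2, 6, 7, 10, 11 and 12. Other sets stood above all low RFI pigs at the brightest probes of CD40 (5, 7, 10 and 11) and CTSC (1, 3, 4, 6, 7 and 8). Leaving out pig 10 of the high RFI line left 686 called probes, 339 higher and 347 lower.

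Genes of contraction and ion handling showed few differences. CASQ2 encodes the calsequestrin of slow and cardiac muscle, which buffers calcium in the sarcoplasmic reticulum. Its level ranged from -0.05 to 1.96 over the 12 low RFI pigs, with a median of 0.95, and from 0.73 to 3.17 over the 12 high RFI pigs, with a median of 2.15. The difference was 0.97 ± 0.26 (adjusted p = 0.0329), all 3 probes were called (0.93 to 0.99), and the call at the brightest was lost without any 1 of 10 pigs. It was the only called gene of 12 slow fibre genes (median 0.12), and MYH7, the slow myosin heavy chain, differed by 0.03 (adjusted p = 0.914). None of the 14 fast fibre genes was called at the brightest probe, but all 14 had differences below 0, with a median of -0.11. With quantile normalization 4 of the 14 were above 0 and the median was -0.04. Counted by probe, 5 of 100 fast fibre probes were called, all lower, 3 of TNNT3 (-0.25 to -0.22) and 1 each of MYLPF and MYH4. TTN, the giant spring protein of the sarcomere, differed by -0.25 ± 0.06 (adjusted p = 0.0102).

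KCNIP2, a calcium-binding subunit of voltage-gated potassium channels, ranged from 0.49 to 2.53 over the 12 low RFI pigs, with a median of 1.49, and from 0.72 to 3.83 over the 12 high RFI pigs, with a median of 2.75. Of the high RFI pigs, 7 lay above all low RFI pigs and the lowest lay among them. The difference was 1.20 ± 0.30 (adjusted p = 0.0194), with both probes called. ABCC8, the sulfonylurea receptor of the ATP-sensitive potassium channel, ranged from -3.66 to -1.95 over the 12 low RFI pigs, with a median of -2.72, and from -2.34 to -1.07 over the 12 high RFI pigs, with a median of -1.67. All but 2 of the high RFI pigs lay above every low RFI pig, and the difference was 1.06 ± 0.16 (adjusted p = 6.15e-05). CAPN2, the m-calpain that cleaves cytoskeletal proteins, fell at its 3 probes (-0.38 to -0.34). At the brightest it ranged from 5.78 to 6.19 over the 12 low RFI pigs, with a median of 6.04, and from 5.47 to 6.03 over the 12 high RFI pigs, with a median of 5.67, with 10 high RFI pigs under all low RFI pigs, and the difference was -0.34 ± 0.07 (adjusted p = 0.00254). None of the 31 myogenic regulators was called (median 0.00).

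Few genes of energy metabolism were called between the lines on this diet. None of the 29 genes of glycolysis and glycogen was called (median -0.11), none of the 20 of the citric acid cycle at the brightest probe (median -0.09), and none of the 33 of insulin and mTOR signalling (median -0.07). Respiratory complex I had 2 of 34 genes lower, NDUFB11 (-0.19, adjusted p = 0.0156) and NDUFV3 (-0.23, adjusted p = 0.0351), and complexes II to V had 1 of 44 lower, UQCRB, the ubiquinol-binding subunit of complex III. UQCRB fell by 0.18 (adjusted p = 0.0489) at the brightest probe, with 6 of its 8 probes lower and 1 higher, so that its probes disagree. The medians of these respiratory lists were -0.09 and -0.10, and -0.04 and -0.01 with quantile normalization. Most genes of the lists lay below 0, 25 of 29 for glycolysis and glycogen and 17 of 20 for the citric acid cycle. The same held for 28 of 33 of insulin and mTOR signalling, 32 of 34 of complex I and 39 of 44 of complexes II to V. Under quantile normalization 9 of the 34 and 19 of the 44 were above 0.

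None of 20 genes of lipid synthesis and none of 8 fat cell markers was called on the LF diet, with medians of -0.09 and -0.14. On the HF diet the same medians were 0.28 and 0.33. ADIPOQ, the adiponectin gene, differed by -0.35 on the LF diet and 0.75 on the HF diet, and the difference between these did not pass adjustment (unadjusted p = 0.0433). FITM1, a protein of fat droplet formation in muscle, was lower, with a difference of -0.61 ± 0.08 (adjusted p = 7.52e-06) at 1 of 3 probes, and the others differed by 0.31 and -0.13.

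HSD11B1, the enzyme that regenerates active glucocorticoid from its inert form, was higher at 5 of its 7 probes (0.65 to 0.84). At the brightest it ranged from 1.91 to 2.80 over the 12 low RFI pigs, with a median of 2.27, and from 2.14 to 4.46 over the 12 high RFI pigs, with a median of 2.82. Of the high RFI pigs, 6 lay above every low RFI pig. The difference was 0.65 ± 0.17 (adjusted p = 0.028), and it lost its call without pig 8 of the low RFI line (adjusted p = 0.0513). It was the only called gene of 21 in glucocorticoid activation and response (median 0.26). The receptor NR3C1 differed by 0.04 and the targets FKBP5 and MT1A by 0.28 and 1.78, without a call. KLF9, another target, was lower at 2 of 12 probes. Of 43 antioxidant genes PRDX1, a peroxide-reducing enzyme, rose by 0.41 ± 0.09 (adjusted p = 0.00416), with no overlap between the lines, while PRDX4 (-0.26, adjusted p = 0.0319) and GSTK1 (-0.33, adjusted p = 0.0406) fell.

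**Figure D4:**
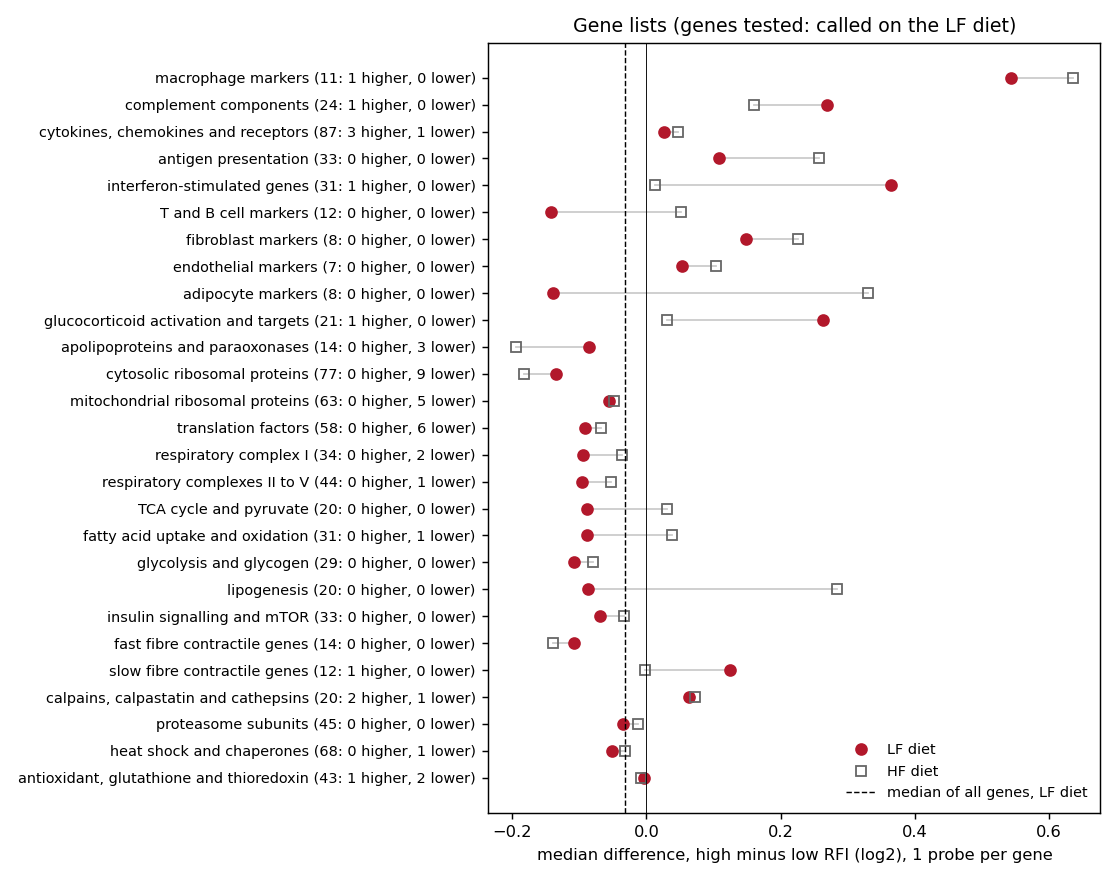
Median difference in log2 level, high minus low RFI, over the genes of each list (horizontal axis) on the LF and HF diets, 1 row per list with the number of genes tested. On the LF diet the macrophage list has the largest median at 0.54 and the cytosolic ribosomal proteins stand at -0.13, while the medians on the LF and HF diets are 0.36 and 0.01 for interferon-stimulated genes and -0.09 and 0.28 for lipogenesis, with no test of the difference between diets over a list.

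Genes that had also been measured by qPCR were looked up next. Of the 23 considered, 21 had a tested probe. At the brightest probe 3 rose in the high RFI pigs and none fell. These were CD40, HSD11B1 and CSRNP3, a nuclear transcription factor, which ranged from -3.55 to -1.72 over the 12 low RFI pigs, with a median of -3.14, and from -2.80 to -0.92 over the 12 high RFI pigs, with a median of -2.12 and differed by 0.88 ± 0.20 (adjusted p = 0.0109). RPL6 was lower at 12 of 15 probes, but its brightest probe differed by -0.13 (adjusted p = 0.258). The remaining 17 were not called at any probe. SERPINA1, the antitrypsin gene, differed by -1.16 (adjusted p = 0.164), IL4R, the interleukin-4 receptor, by 0.51 (adjusted p = 0.0884) and EZR, the ezrin linker of membrane and cytoskeleton, by 0.43 (adjusted p = 0.175). The others, ACACB, AKAP12, ATP1B1, BLCAP, FKBP5, FYN, IGF2, MUM1, PDZD2, PHKB, SERINC3, SOCS6, TFG and TMED3, differed by -0.18 to 0.28.

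The same contrast on the HF diet called 2692 probes (6.39%), 994 higher (2.36%) and 1698 lower (4.03%), and the comparisons share no pigs. Of the 1040 probes called on the LF diet, 558 were also called on the HF diet, which is 53.7% of the former and 20.7% of the latter, and 1008 had the same sign. No probe passed the test of the difference between the diets after adjustment in limma (smallest adjusted p = 0.395), and 1875 (4.45%) had an unadjusted p under 0.05. Nothing can therefore be called particular to the LF diet at this threshold, and the 482 probes called on this diet alone are not shown to differ between diets. Of the LF calls 142 (13.7%) had an unadjusted p under 0.05, and of these 140 were larger in size on the LF diet, where they had been selected.

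The LF calls with the smallest unadjusted p for this difference were the following. RDH16, a retinol dehydrogenase, ranged from 0.61 to 1.94 over the 12 low RFI pigs, with a median of 1.65, and from -0.23 to 1.38 over the 12 high RFI pigs, with a median of 0.55. Of the low RFI pigs, 8 lay above all high RFI pigs. The difference was -0.83 ± 0.19 (adjusted p = 0.0112) on the LF diet and 0.27 on the HF diet (unadjusted p = 0.000191), but the second probe gave -0.51 and -0.34. FHL5, a LIM-domain coactivator, differed by -0.33 ± 0.10 (adjusted p = 0.0465) against 0.27 (unadjusted p = 5.52e-05), and its second probe likewise by -0.29 against 0.25. STOML1, a membrane protein of the stomatin family, differed by 0.26 against -0.19, and DDX20, an RNA helicase of the SMN complex, by 0.36 against -0.05. RBM39, a splicing factor, differed by -0.23 against 0.14 at the called probe, and all 9 of its probes lay between -0.23 and -0.16 on the LF diet and above 0 on the HF diet.

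Immune genes were also among the LF calls that were smaller on the HF diet. MX2, an interferon-induced antiviral GTPase, ranged from -2.61 to -1.25 over the 12 low RFI pigs, with a median of -1.68, and from -1.95 to 0.52 over the 12 high RFI pigs, with a median of -1.11. All but 2 of the high RFI pigs lay above every low RFI pig. The difference was 0.88 ± 0.22 (adjusted p = 0.0182) on the LF diet and 0.00 on the HF diet (unadjusted p = 0.00648). Over 31 interferon-stimulated genes the median was 0.36 on the LF diet, with 26 above 0 and MX2 the only one called, and 0.01 on the HF diet. XAF1, a proapoptotic member, differed by 1.09 (adjusted p = 0.0713) on the LF diet. LGALS8, the galectin that marks damaged vesicles, was called at all 5 probes, from 0.52 to 0.62, against 0.10 to 0.17 on the HF diet. At 1 of its probes the level ranged from -1.20 to -0.18 over the 12 low RFI pigs, with a median of -0.94, and from -0.55 to 0.30 over the 12 high RFI pigs, with a median of -0.30 and the difference was 0.62 ± 0.11 (adjusted p = 0.000875). LGALS9, an immune-modulating galectin, differed by 0.70 against 0.07 (unadjusted p = 0.0226). SLC5A4, a glucose-sensing transporter of the sodium-coupled family, ranged from -0.02 to 1.80 over the 12 low RFI pigs, with a median of 0.31, and from 0.56 to 2.59 over the 12 high RFI pigs, with a median of 1.86 and differed by 1.21 ± 0.27 (adjusted p = 0.00737) against 0.30 (unadjusted p = 0.0211). FCGR1A differed by 1.69 against 0.43. PON1 and PON3 had smaller log2 differences on the HF diet, -1.60 and -1.53 (unadjusted p = 0.0362 and 0.0287).

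**Figure D5:**
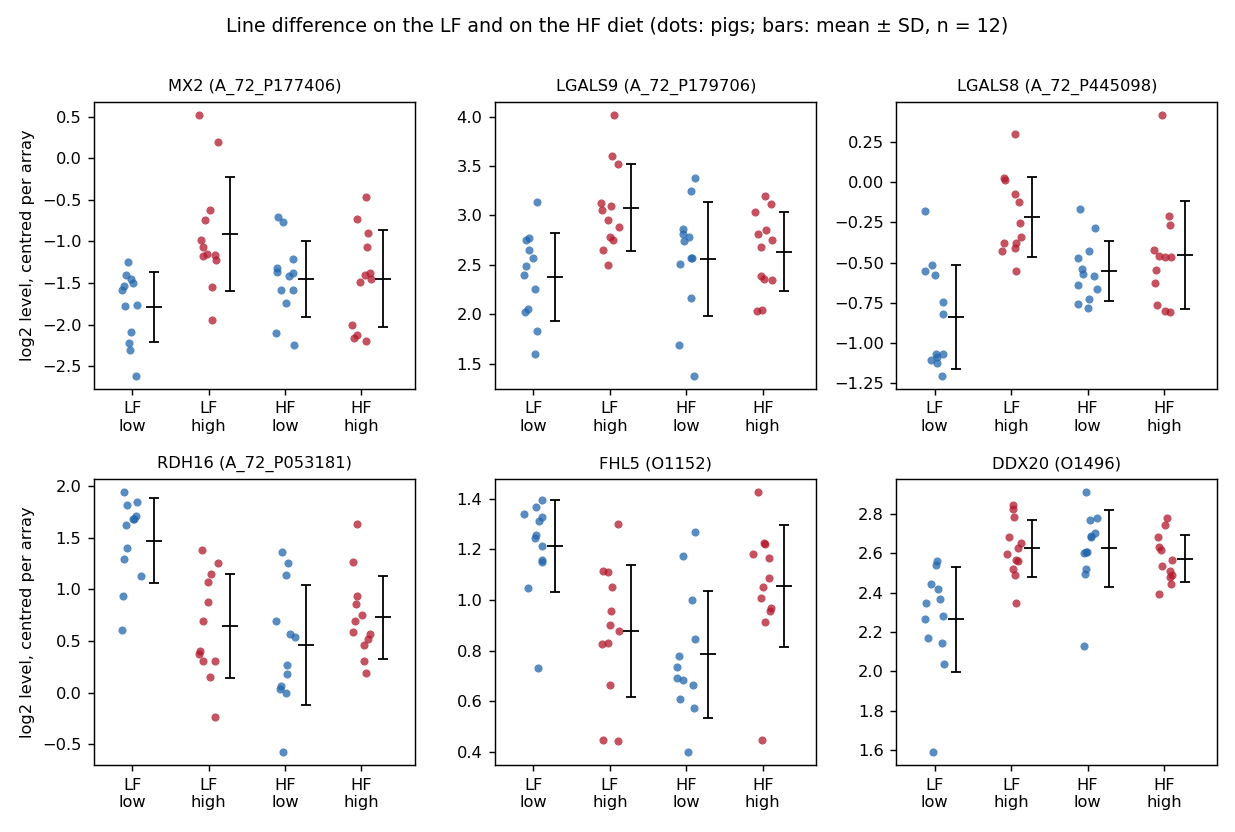
Log2 level relative to the array mean (vertical axis) of MX2, LGALS9, LGALS8, RDH16, FHL5 and DDX20 in the low RFI and high RFI pigs on the LF and HF diets, 1 point per pig with the group mean and SD, 12 pigs per group. The line means differ on the LF diet, with overlapping values in each panel, and are closer together or in the other order on the HF diet. This difference between diets did not pass adjustment.

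Other genes called on the LF diet had a difference of the same sign on the HF diet, of like size in some and smaller in others. RPL14 stood at -0.54 and -0.52, CD40 at 0.92 and 1.04, CCL25 at -0.54 and -0.59 and LGALS3 at 1.17 and 1.05, while the first RPL6 probe shown stood at -0.72 and -0.45. Further probes were chosen after their values were seen, for their small p. ADCY4, an adenylyl cyclase, was lower, with a difference of -0.79 ± 0.10 (adjusted p = 7.52e-06) at 1 of 4 probes, HSD3B1, an enzyme of steroid synthesis, with a difference of -0.57 ± 0.08 (adjusted p = 2.21e-05), and CCDC69, a coiled-coil protein of the mitotic spindle, with a difference of -0.87 ± 0.12 (adjusted p = 2.67e-05). SUSD4, a regulator of complement, was lower, with a difference of -1.06 ± 0.16 (adjusted p = 4.39e-05). Their HF differences were -0.56, -0.61, -0.95 and -0.60.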

How the data were processed

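RNA of the longissimus muscle was hybridised, labelled with Cy3, on 60 K arrays, with an array for each pig. The deposited scanner files hold spot intensities from Agilent Feature Extraction 10.7.3.1 per the file headers, where the processed signal is background-corrected by the authors' scanner software. The authors also deposited a table of log2 values, used here as an alternative. Processing per the labels was done in R 2.10.0. Control and outlier spots were left out, spots of a probe were averaged, and processed signals were turned into log2 values relative to each array's mean. Tests were run on the probes that the scanner marked well above background on 12 or more of the 48 arrays, which left 42125 of 60305 probes, with 59 missing values on the LF arrays, which limma leaves out of the fit of the probe. Symbols came from the array files and RefSeq gene tables and were found for 27377 probes (45.4%). Probe sequences are those of the array files.

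The 4 line and diet groups were fitted with limma 3.58.1 in R 4.3.3 with the data.table package, with summaries in Python 3.11.15, pandas 2.3.3 and numpy 2.4.6, and the step was tested on simulated data. Named genes were the 10 with the largest differences in each direction among genes with 2 or more probes called, the 5 largest probes in each direction, the 5 LF calls with the smallest unadjusted p for the difference between diets, up to 4 members of each described list and the qPCR genes. Further genes, such as RPL14, RPL38, MRPL33, CASQ2, LGALS8, FITM1 and CAPN2, were chosen after their values were seen. The 52 gene lists and the members were chosen with earlier results of these data known. Of the qPCR genes, 1 is not reported here, nor are some members of the lists. Pigs are separate animals, but whether some are littermates is not given in the sources used here. Alternatives covered scaling, background correction, dim probes, outlier spots, slide and scan day as blocks, the LF arrays alone, the deposited table, the variance analysis of the study's methods and each LF pig left out.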

Additional observations from a re-analysis of the deposited data

How the results depend on the processing

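The count of 1040 probes on the LF diet was 424 without the filter on dim probes (60305 tested) and 7232 at an unadjusted p in the variance analysis of the methods, against 993 in that analysis after adjustment. It was 1412 with the slide and 1181 with the scan day as a block, 923 with quantile normalization, 791 with normexp, 882 in the deposited table and 958 with the LF arrays alone. Leaving out 1 LF pig gave 686 to 1487, the lowest without pig 10 and the highest without pig 9 of the high RFI line. On the HF diet 802 probes were called without the filter and 4187 with the slide as a block. No probe passed the test of the difference between diets under any alternative run, with 1439 to 2357 at an unadjusted p under 0.05. No difference of a named probe changed sign with a call. Of 96 called named probes, 54 stayed called without each LF pig. Calls lost without 1 pig include those of CASQ2, CXCL16, VSIG4, GPNMB, LY96 and UROC1. No paired analysis was possible because the labels give every pig the same replicate number. Dim probes, such as those of PON3, APOA4, KCNE1, SPOCK3, BCO2, NEFH and OAZ3, were not well above background on all arrays, which limits the size of their differences.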

Other observations

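The probe with the smallest p of the LF comparison has no gene symbol. Its level ranged from -1.50 to -0.89 over the 12 low RFI pigs, with a median of -1.21, and from -3.04 to -1.75 over the 12 high RFI pigs, with a median of -2.63, with no overlap, and differed by -1.44 ± 0.14 (adjusted p = 1.1e-08). Another unnamed probe ranged from -3.71 to -1.69 over the 12 low RFI pigs, with a median of -2.68, and from -1.61 to -0.66 over the 12 high RFI pigs, with a median of -1.22, also with no overlap, and differed by 1.46 ± 0.22 (adjusted p = 5.49e-05). Other genes whose lines did not overlap were DHRS7C, a dehydrogenase of the sarcoplasmic reticulum (-0.79, adjusted p = 0.000331), HEATR4 (-0.76, adjusted p = 0.000673), the nuclear pore gene NUP43 (-0.65, adjusted p = 0.000613), NAXE, which repairs hydrated NADH (-0.40, adjusted p = 0.00142), and the metallothionein MT-2B (-0.25, adjusted p = 0.0174).

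Some called genes lay beside each other on the chromosomes of the pig. In the gene order of the assembly Sscrofa11.1, 61 of 376 called genes (16.2%) had a called gene next to them among the genes tested, against 670 of 9331 others (7.18%). This is a description, and neighbouring genes whose probes share sequence count in it. In 24 adjacent pairs both genes had a called probe in the same direction, and the number of pairs called in opposite directions is not given. UQCRB, whose probes disagree, stands in a pair of each direction. Among them were PON1 and PON3, SUSD4 and CAPN2, EIF1B and RPL14, DHRS1 and RABGGTA, SLA-2 and SLA-3, and the run IL18, TEX12 and BCO2.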
